A study of Mus musculus with 4 samples.

Results

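The genes described here encode the core of the spliceosome and the heterogeneous nuclear ribonucleoproteins (hnRNPs). They were chosen by name from the peak annotation: every gene called Srsf, Sf3a, Sf3b, Prpf (each with a number), Snrp, U2af or Hnrnp, without Snrpn and without pseudogenes. This gave 62 of the 12987 gene names in the annotation, of which 10 encode SR proteins, 7 subunits of SF3A and SF3B, 10 Sm and other snRNP proteins, 13 PRPF factors, 2 subunits of U2AF and 20 hnRNPs. A gene entered only if at least 1 peak of either genotype carried its name, so the share of these genes that had peaks was partly fixed by the choice.

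The data are chromatin immunoprecipitation and sequencing (ChIP-seq) of histone H3 trimethylated at lysine 36 (H3K36me3) in neural progenitor cells of C57BL/6 forebrains at embryonic day 13. Wild-type (WT) embryos were set against embryos in which the histone variant gene H2A.z1 had been deleted in the brain (H2A.z1cKO, here cKO). The sources used here do not name the Cre driver, the number of embryos or their sex. Each genotype had 1 ChIP and 1 input library, so every value below is from 1 library, no test between genotypes was possible, and embryo, library and genotype cannot be told apart. In brackets, 95% intervals are exact binomial (Clopper-Pearson) and cover counting error only.

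The spliceosome removes introns from precursor messenger RNA. The U1 particle first pairs with the 5′ splice site, U2AF reads the 3′ end of the intron, and the U2 particle with SF3A and SF3B takes hold of the branch point. The U4/U6.U5 tri-snRNP, which contains many PRPF factors, then joins and is rearranged into the catalytic form. SR proteins bind exons and recruit this machinery, while hnRNPs coat nascent transcripts and often oppose it. H3K36me3 is laid down by SETD2, which travels with elongating RNA polymerase II, so it marks the bodies of transcribed genes, away from their promoters. Splicing genes are expressed in all dividing cells, including forebrain progenitors.

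The libraries differed in ways that touch every value below. They held 31984670 (WT) and 32927164 (cKO) ChIP tags, with modelled fragments of 152 and 185 bp. The WT list nevertheless had 36820 peaks over 13.3 Mb and the cKO list 95750 peaks over 69.1 Mb. Of 10 progenitor markers, 8 had a peak in the gene body in WT and 9 in cKO, with Fabp7 at 0 in both. Of 8 neuronal markers, 2 and 3 had one, with Dcx, Neurod6, Tbr1, Gad1 and Rbfox3 at 0 in both. Peaks held 27.6% of the Tubb3 body in WT and 38.7% in cKO, and 0.454 and 3.15% of Map2. Stmn2 had one in cKO only (0.396%). The median share of the body inside peaks was 9.70 and 28.3% for the progenitor markers and 0% in both libraries for the neuronal ones. No marker of blood (6), endothelium (5) or mesenchyme (5) had a peak in either library, and 1 of 4 microglial markers, Csf1r, had one in cKO. The deleted gene, H2az1 in the current annotation, had H3K36me3 peaks in both libraries, with 7.80% of its body inside peaks in WT and 21.1% in cKO. This does not check the deletion, since no source used here says which segment was removed.

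Peaks covered more of the body of nearly every splicing gene in the cKO library. The body is the RefSeq span of the gene on GRCm38.p6 (mm10), and coverage is the share of it inside peaks. Across the 62 genes the median coverage was 15.2% in WT (quartiles 5.69 and 28.5%, highest 65.0%) and 50.9% in cKO (quartiles 38.2 and 66.7%, highest 87.9%). The median difference, cKO minus WT, was 31.9 percentage points, with quartiles of 23.8 and 41.4. In bulk tissue, more cells with the mark and more mark per cell cannot be told apart. No gene had lower coverage in cKO, and Sf3b5, the only one with no body peak in either library, was at 0 in both. For bodies of 5 kb or more, a difference of 10 points or more was the call limit. By that rule 56 of 58 genes were higher and 0 lower, against 32.7% higher and 0% lower among 16802 protein-coding genes of that length. Most of those genes had no WT peak in the body. Among the 6400 with a WT peak in the body, 75.3% were higher, beside 55 of 57 splicing genes. A rise was therefore common to most marked genes, and Hnrnpl and Hnrnpf were the splicing genes of at least 5 kb below the limit.

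**Figure D1:**
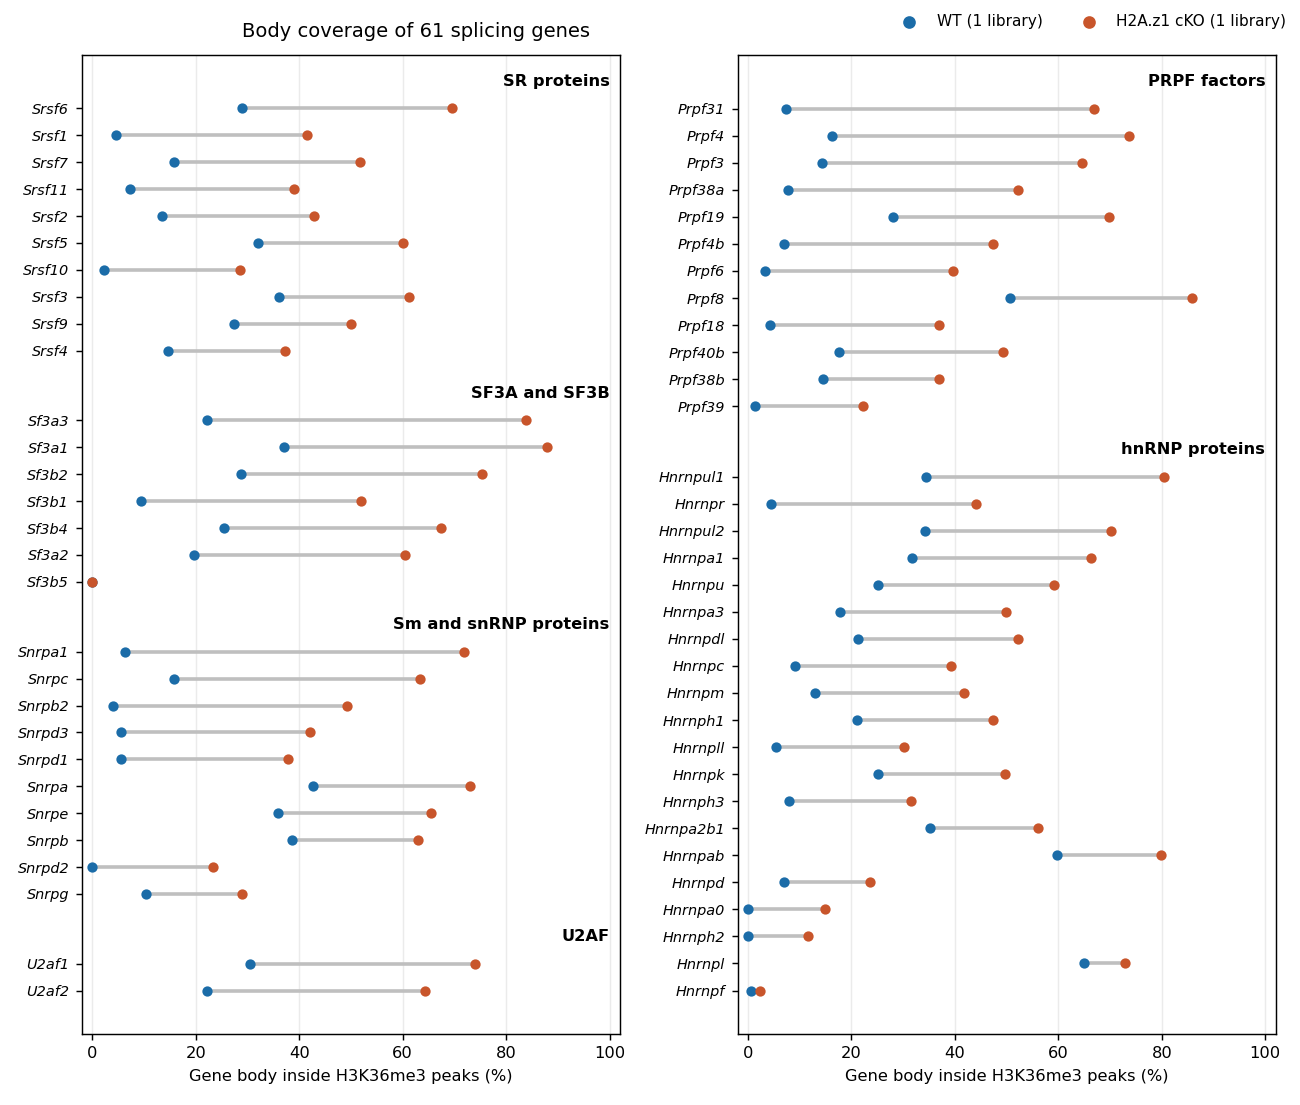
Share of each gene body inside H3K36me3 peaks (x axis, percent) for 61 of the splicing genes, grouped by role and ordered within a group by the difference; blue points are the WT library and orange points the cKO library, 1 of each. The cKO point lies to the right of the WT point for every gene shown except Sf3b5, at 0 in both, and the 2 points lie closest for Hnrnpf and Hnrnpl.

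The rise took many genes from partial to majority coverage. Over 50% of the body lay inside peaks in 3 of the 58 genes of at least 5 kb in WT (Hnrnpl, Hnrnpab and Prpf8) and in 32 in cKO. The same share was 0.196% in WT and 9.25% in cKO for all protein-coding genes of that length, and 24.2% in cKO for those with a WT peak. The order of the genes was similar in both libraries, with a Spearman rho of 0.816 over the 62 genes, which share the libraries and are not replicates. Splicing genes were shorter than other marked genes, with a median body of 13112 bp against 26227 bp for the 6861 protein-coding genes with a WT peak. Over those 6861 genes longer bodies went with lower WT coverage (rho -0.618), a relation that was weak among the splicing genes (rho -0.162). The part that length has in the difference from other genes was not tested.

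Shortening the cKO list removes the difference in covered length between the lists. The weakest cKO peaks were dropped whole until the rest covered as many bases as the WT list. The median -log10 q of cKO peaks was higher for splicing genes than for all annotated genes. Splicing genes could thus keep more of their peaks, so the comparison with other genes does not measure an excess. The part that peak strength has in it was not tested. With the shortened list the median difference fell from 31.9 to 3.97 points over the 62 genes, against -0.989 points for protein-coding genes with a WT peak. Of the 58 genes of at least 5 kb, 21 stayed higher by at least 10 points and 6 became lower, beside 12.5% and 5.83% of the 6400 genes with a WT peak (4.82% and 2.22% of all 16802). The 6 lower genes were Sf3b4, Hnrnpu, Srsf9, Hnrnpa3, Prpf38b and Snrpg. Except for Srsf9, all their cKO peaks had been dropped, and the value is then the WT coverage with a minus sign. In all, 13 of the 61 genes with cKO coverage had none left. The deleted gene, H2az1, which is not among them, had none left either (-7.80 points). When peaks of the full lists within 3 kb of each other were joined instead, 36 of 58 genes were higher, against 77% of marked genes, with a median difference of 17.8 points.

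**Figure D2:**
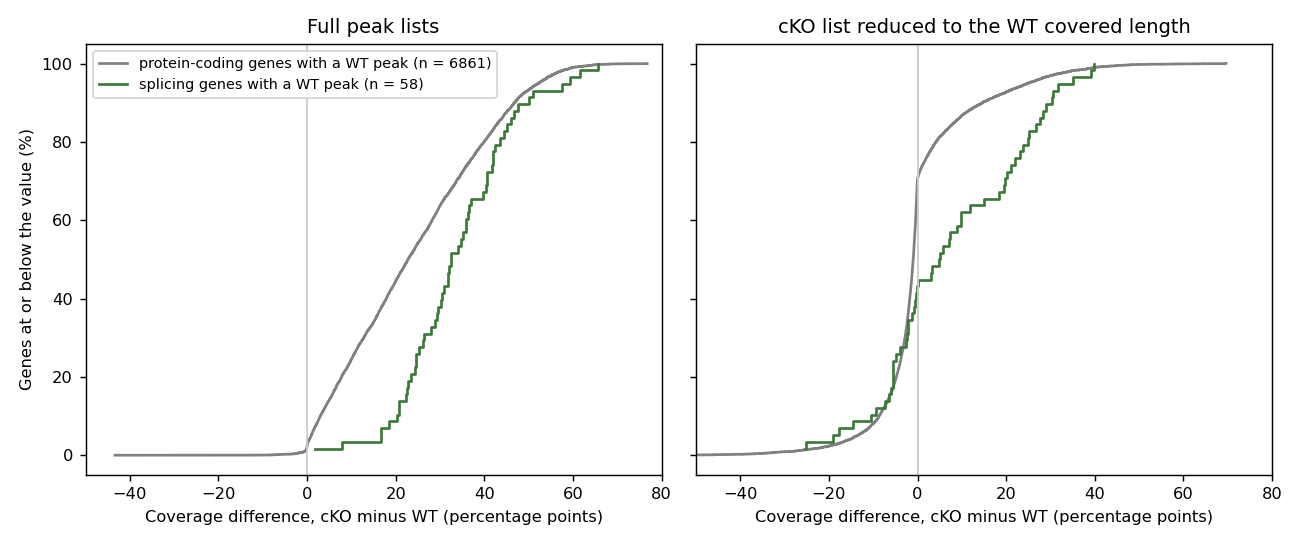
Cumulative share of genes (y axis, percent) at or below each coverage difference, cKO minus WT (x axis, percentage points), for splicing genes (green, n = 58) and all protein-coding genes with a WT peak (grey, n = 6861). With the full lists (left) the green curve lies to the right of the grey one over most of its range, with medians of 32.5 and 22.8 points; at matched covered length (right) the medians are 4.95 and -0.989 points and the green curve extends to both sides of 0.

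Along the gene, the mark began well inside the body and reached past its 3′ end. For the 50 splicing genes of at least 5 kb with a listed strand, the body was cut into 10 equal bins. Bin 1 was on average 0.845% covered in WT and 2.66% in cKO. The WT mean rose to 27.4% in bin 5 and was 29.4% in bin 8 and 26.9% in bin 10. The cKO mean was 67.6%, 75.3% and 65.3% in the same bins. The kilobase before the start had no coverage in either library, while the kilobase after the end was 24.0% covered in WT and 59.7% in cKO. All protein-coding genes with a WT peak (5209 genes of that length and with a strand) had a rising profile as well, at 13.6% in WT and 49.7% in cKO in bin 9. Distance to the start was counted from the 5′ end of the RefSeq body, and some genes have listed starts farther inside. The first covered base lay a median 3917 bp from the start in WT and 2889 bp in cKO, over 49 splicing genes marked in both. It was closer to the start in cKO in 45 of them, farther in 3 and equal in 1. These distances were not taken over all genes. Of the WT peaks of splicing genes, 322 of 325 overlapped a cKO peak, which left little room for a farther start in cKO. Whether the mark spread toward the start was not tested.

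**Figure D3:**
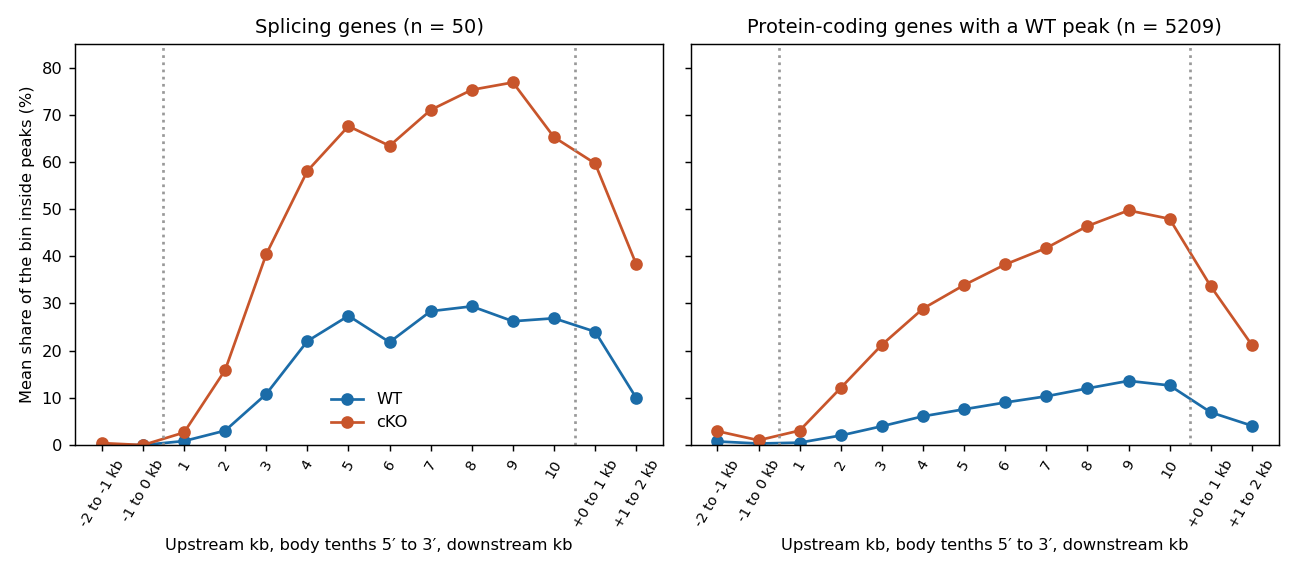
Mean share of each bin inside H3K36me3 peaks (y axis, percent) over the 2 kb before the gene, 10 equal parts of the body and the 2 kb after it (x axis, 5′ to 3′), in WT (blue) and cKO (orange). The left panel shows the 50 splicing genes of at least 5 kb with a listed strand and the right panel 5209 protein-coding genes with a WT peak; dotted lines mark the gene ends. Both panels are near 0 at the start, and the splicing genes reach 76.9% in bin 9 in cKO against 26.2% in WT.

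The authors' class named promoter-TSS does not place these peaks at the RefSeq promoters of the genes. The class refers to Ensembl transcripts, whose own starts were not compared here. It was given to 40 of 325 WT peaks (12.3%, 8.94 to 16.4%) and 45 of 430 cKO peaks (10.5%, 7.74 to 13.8%) that carried the name of a splicing gene. Over all genes it was given to 8.01% of WT and 5.59% of cKO peaks. Of the 40 WT peaks of splicing genes, 38 belonged to a gene with an entry in the RefSeq promoter table. None of these reached a promoter window, the 250 bases before and 50 after a listed start, and they lay a median 5904 bp from the nearest listed start. Over all 71 windows of 53 splicing genes, 0 held a WT peak (up to 5.06%) and 1, at Prpf19, a cKO peak (1.41%). For all promoter windows the shares were 0.338% and 1.26%. The 250 bases before the start are shown for the 5 genes with the strongest WT peak of that class, as a view of sequence outside the called peaks of both libraries. Where a gene had several listed starts, the one nearest the 5′ end of the body was taken. For Hnrnpl, Hnrnph1, Hnrnpu and Prpf40b that start lay inside the body, so the bases shown overlap the body. Capitals mark 4 short motifs on either strand, and each run reads 5′ to 3′ on the strand of the gene. The GC box was searched as GGGCGG. The core of ETS factor sites was searched as CCGGAA. The third motif was the CCAAT box, searched by those letters. The fourth was the TATA box, taken in its stricter form TATAAA.
Hnrnpl: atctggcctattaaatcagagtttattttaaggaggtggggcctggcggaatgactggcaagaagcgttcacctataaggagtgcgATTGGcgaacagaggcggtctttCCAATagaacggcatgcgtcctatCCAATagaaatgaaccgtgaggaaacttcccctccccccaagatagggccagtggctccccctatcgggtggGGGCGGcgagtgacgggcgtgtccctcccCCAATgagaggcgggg
Hnrnph1: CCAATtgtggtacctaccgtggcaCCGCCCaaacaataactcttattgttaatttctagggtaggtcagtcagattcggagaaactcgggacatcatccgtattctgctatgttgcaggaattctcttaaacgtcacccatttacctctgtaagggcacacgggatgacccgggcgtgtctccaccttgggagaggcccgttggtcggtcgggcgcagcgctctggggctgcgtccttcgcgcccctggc
Snrpa: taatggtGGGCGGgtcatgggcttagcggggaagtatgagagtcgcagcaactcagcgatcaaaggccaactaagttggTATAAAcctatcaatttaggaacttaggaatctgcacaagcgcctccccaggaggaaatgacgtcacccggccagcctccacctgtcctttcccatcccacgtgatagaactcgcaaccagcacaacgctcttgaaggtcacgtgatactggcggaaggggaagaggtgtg
Hnrnpu: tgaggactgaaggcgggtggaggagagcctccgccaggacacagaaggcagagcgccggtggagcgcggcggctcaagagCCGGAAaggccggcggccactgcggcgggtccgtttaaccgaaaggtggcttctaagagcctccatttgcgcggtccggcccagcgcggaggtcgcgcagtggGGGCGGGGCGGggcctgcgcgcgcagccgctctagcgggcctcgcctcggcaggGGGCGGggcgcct
Prpf40b: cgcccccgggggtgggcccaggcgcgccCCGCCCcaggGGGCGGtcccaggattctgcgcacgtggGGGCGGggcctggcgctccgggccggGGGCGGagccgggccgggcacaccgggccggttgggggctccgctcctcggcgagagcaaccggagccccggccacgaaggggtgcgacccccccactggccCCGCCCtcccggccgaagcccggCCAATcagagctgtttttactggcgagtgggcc
The windows are chr7:28810640-28810889 (plus strand) for Hnrnpl, chr11:50376740-50376989 (plus) for Hnrnph1, chr7:27196272-27196521 (minus) for Snrpa, chr1:178337816-178338065 (minus) for Hnrnpu and chr15:99294991-99295240 (plus) for Prpf40b, from RefSeq on GRCm38.p6. Each had 0 bases inside peaks in both libraries. The strongest peak classed promoter-TSS began 8697 bp from the start shown for Hnrnpl, 5570 bp for Hnrnph1, 6416 bp for Snrpa, 7375 bp for Hnrnpu and 13875 bp for Prpf40b, in each case inside the body.

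These promoters were rich in CpG and mostly without a TATA box. Hnrnpl had 4 CCAAT boxes and 1 GC box, Hnrnpu 3 GC boxes, which can overlap, and 1 ETS core, and Prpf40b 5 GC boxes. Snrpa was the 1 of the 5 with a TATA box. Over the 71 windows, searched on both strands in the 250 bases before the start, a GC box was in 67.6% (32.7% of 32851 windows of all genes), an ETS core in 43.7% (12.03%), a CCAAT box in 47.9% (33.8%) and a TATA box in 5.63% (12.4%). The median number of CpG dinucleotides was 21, against 6 for all genes. These are matches of letters and not binding sites.

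On many of these genes a few long cKO peaks stood where WT had a cluster of short ones. By the annotation, which names each peak after a nearby transcript, the 62 genes held 325 non-intergenic peaks in WT and 430 in cKO. In WT 58 genes had such a peak and in cKO 59, of 61 genes with one in either list. Among all 12573 names with such a peak in either list the shares were 66.9% and 97.2%. Peak width had a median of 301 bp (WT) and 579 bp (cKO), beside 271 and 439 bp over all annotated genes. Peaks over 2 kb were 2 of 325 in WT (0.615%, 0.0746 to 2.21%) and 53 of 430 in cKO (12.3%, 9.37 to 15.8%), beside 0.478% and 6.09% over all genes. Of the 56 genes named in both lists, 24 had fewer peaks in cKO, 30 more and 2 the same number. The 23 genes with fewer peaks but more summed length were 41.1% of these 56, against 14.8% of 8054 genes named in both lists. With peaks within 3 kb joined their number was 14, a count that was not taken over all genes.

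The sum of peak lengths per gene gave the same direction as coverage. Over the 56 genes its median came to 1805 bp (WT) and 7166.5 bp (cKO), and the median ratio was 3.47 (quartiles 2.31 and 8.20). Over all 8054 genes named in both lists the medians were 898 and 5583 bp and the median ratio 5.48. A ratio of at least 2 was found in 50 of 61 splicing genes, against 90.8% of all names, and a ratio of at most 1/2 in 2 of 61, against 3.15%. By this measure the share of splicing genes that were higher lay below that of all named genes, while by coverage with the full lists it lay above that of marked genes. With peaks within 3 kb joined, it lay below by coverage too. The splicing genes had the higher WT median, and the part that starting length has in these ratios was not tested. With a limit of 4 the count was 28 of 61 (74.7% of all names). At matched covered length 14 splicing genes were higher by at least 2 times and 18 lower, against 11.9% and 65.9% of all names. The median ratio over the 58 genes named in WT, with 0 for the 16 left without a named cKO peak, was then 1.16, against 3.23 with the full lists and 2 such genes.

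**Figure D4:**
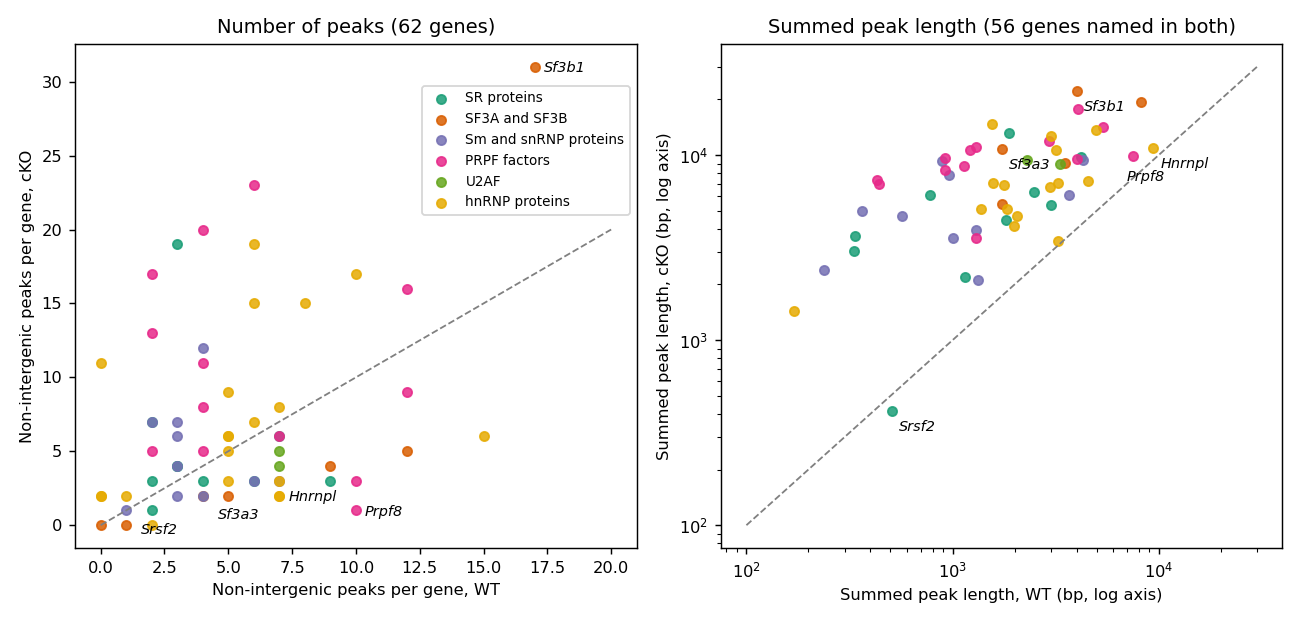
Left, number of non-intergenic peaks per splicing gene in WT (x axis) and cKO (y axis) for the 62 genes; right, their summed length in bp on log axes for the 56 genes named in both lists. Points are genes coloured by role and the dashed line marks equal values; Prpf8 falls from 10 peaks to 1 while its summed length rises from 7547 to 9958 bp, and Srsf2 lies under the line on the right.

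Nearly all WT peaks of these genes overlapped a cKO peak. Of the 325 WT peaks, 322 (99.1%, 97.3 to 99.8%) shared 1 bp or more with a cKO peak, against 96.5% over all genes. The other 3 were on Snrpd3 (161 bp), Hnrnpa3 (279 bp) and Prpf3 (185 bp). The share was 52% with the cKO list at the WT covered length, and 16.6% where the overlap had to reach 50% of both peaks. Neither of these shares was taken over all genes. In the other direction, 190 of 430 cKO peaks (44.2%) overlapped a WT peak, against 25.6% over all genes, and 62 (14.4%, 11.2 to 18.1%) spanned 2 or more WT peaks, against 6.46%. The fullest were a peak of 9958 bp on Prpf8 and one of 7428 bp on Prpf19, each over 9 WT peaks. On Hnrnpul1 a peak of 6053 bp spanned 8, and on Sf3a3 and Srsf3 peaks of 9861 and 4913 bp spanned 7 each.

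By the authors' classes, introns held 44.0% of the WT and 52.8% of the cKO peaks of these genes, exons 20.9 and 17.7%, and transcription termination sites 22.8 and 19.1%. Over all genes introns held 50.9 and 64.0%, exons 23.3 and 16.1%, and transcription termination sites 17.9 and 14.3%. First introns held 3 of the 138 WT intron peaks with a position (2.17%, 0.451 to 6.22%) and 20 of 224 in cKO (8.93%, 5.54 to 13.5%), against 3.26 and 4.77% over all genes. The 3′ introns of each transcript, past its middle, held 64.5% of these peaks in WT (55.9 to 72.4%) and 59.4% in cKO (52.6 to 65.9%), beside 59.0% and 54.8% over all genes.

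The SR proteins are RNA-binding regulators with a domain rich in arginine and serine, and all 10 genes had body peaks in both libraries. Their coverage ranged from 2.37 to 36.2% in WT (median 15.2%) and from 28.6 to 69.5% in cKO (median 46.4%). Of genes of at least 5 kb, 9 of 9 were higher, beside 75.3% of marked genes. The differences were largest for Srsf6 (28.9% in WT, 69.5% in cKO), Srsf1, the founding member of the family (4.57 and 41.6%), and Srsf7 (15.7 and 51.7%). At matched covered length the difference stayed at 29.0 points for Srsf6 and 14.9 for Srsf1, but was -1.23 for Srsf7. Srsf3, which has the highest WT coverage of the group (36.2%), reached 61.3% in cKO, with 9 named peaks (4198 bp) in WT and 3 (9756 bp) in cKO. Without the peaks classed promoter-TSS its difference was -0.149 points. The smallest difference was that of Srsf4 (14.7 and 37.2%). Srsf2 shows how names and positions can part. Its named peaks summed to 508 bp in WT and 414 bp in cKO, but its body (chromosome 11, 116849897 to 116853675) was 13.4% covered in WT and 42.8% in cKO, since a cKO peak of 2534 bp there carried the name Mettl23.

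SF3A and SF3B are the subunits of the U2 particle that hold the branch point. Of 7 genes, 6 had body peaks in both libraries, with group medians of 22.2% in WT and 67.3% in cKO. All 6, each at least 5 kb long, were higher, beside 75.3% of marked genes. Sf3a3 (chromosome 4, 124714861 to 124732423) was 22.2% covered in WT and 83.8% in cKO, a difference of 61.5 points that stayed at 39.9 at matched covered length. It held the strongest peak of all splicing genes in both lists. The WT peak spanned 587 bp, with a -log10 q of 39.1 and rank 55 of 36820. The cKO peak spanned 9861 bp, with a -log10 q of 75.8 and rank 27 of 95750. Sf3a1 (37.0 and 87.9%) had the highest cKO coverage of the 62 genes, and Sf3b2 went from 28.7 to 75.4%. Sf3b1, the largest subunit of SF3B, had the most named peaks of any splicing gene in both lists, 17 (3999 bp) in WT and 31 (22146 bp) in cKO, over 9.45 and 51.9% of its body. At matched covered length its difference was 3.05 points. Sf3b4 had 1 named peak in WT and none in cKO, but 25.5% of its body was covered in WT and 67.3% in cKO, by cKO peaks named Gm22027. Those peaks were all dropped at matched covered length. Sf3b5, at 734 bp the shortest gene, carried only intergenic cKO peaks beyond its body.

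The Sm proteins form a ring around most spliceosomal RNAs, and the other genes of this group encode proteins specific to U1 or U2. Coverage ranged from 0 to 42.7% in WT (median 8.35%) and from 23.3 to 73.0% in cKO (median 56.1%). Of genes of at least 5 kb, 9 of 9 were higher, beside 75.3% of marked genes. Snrpa1, which encodes the U2 A′ protein (chromosome 7, 66060336 to 66074587), showed the largest difference of all 62 genes, from 6.25 to 71.9% (65.7 points, and 19.8 at matched covered length). It had 3 named peaks (891 bp) in WT and 7 (9351 bp) in cKO. Snrpc, the U1 C protein, went from 15.8 to 63.3%, and Snrpb2, the U2 B″ protein, from 4.06 to 49.2%. Snrpc stayed higher by 27.7 points at matched covered length, while Snrpb2 had no cKO peak left. Snrpa, the U1 A protein, had the highest WT coverage of the group, 42.7%, and reached 73.0% in cKO. The smallest difference was in Snrpg (10.4 and 28.9%), whose cKO peaks were all lost at matched covered length. Snrpd2 had no WT peak in its body, since its 1 named WT peak lay outside it, and 23.3% coverage in cKO.

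The PRPF factors had medians of 7.83% in WT and 49.3% in cKO, and all 13 were higher, beside 75.3% of marked genes. The median difference of the PRPF factors was 36.2 points with the full lists and -0.0148 at matched covered length. Prpf31, Prpf4 and Prpf3, which encode proteins of the U4/U6 particle, had the largest differences. Coverage went from 7.39 to 66.8% in Prpf31, from 16.2 to 73.6% in Prpf4 and from 14.4 to 64.5% in Prpf3. At matched covered length these differences were 21.0, 28.3 and 5.14 points. Prpf8, the scaffold at the heart of the spliceosome (chromosome 11, 75486777 to 75509447), had the highest WT coverage, 50.7%, and reached 85.9%. Its difference of 35.2 points was the same at matched covered length, because all its cKO peaks were among the strongest. Prpf40b, a U1-associated factor, went from 17.6 to 49.3%, with 12 named peaks in WT and 9 in cKO. Its difference turned to -7.25 points at matched covered length. Of the peaks named Prpf39, 0 of 2 in WT and 3 of 17 in cKO lay in its body, which was 1.31 and 22.1% covered (-0.0148 points at matched covered length).

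Both genes of U2AF, the heterodimer that reads the 3′ splice site, were higher in cKO, as were 75.3% of marked genes. U2af1, the small subunit, went from 30.4 to 74.0%, with 7 named peaks (3313 bp) in WT and 5 (8933 bp) in cKO. U2af2, the large subunit, went from 22.3 to 64.3%, with 7 (2300 bp) and 4 (9417 bp). At matched covered length the pair parted, at 30.6 points for U2af1 and -9.35 points for U2af2.

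The hnRNP genes had a median difference of 25.5 points with the full lists and 0 at matched covered length, with a WT range of 0 to 65.0% (median 19.4%) and a cKO range of 2.40 to 80.4% (median 48.6%). Of 19 genes of at least 5 kb, 17 were higher and none lower, beside 75.3% of marked genes that were higher. Hnrnpul1 (chromosome 7, 25721161 to 25756268) went from 34.4 to 80.4%, and its 15 named peaks (4979 bp) in WT stood against 6 (13669 bp) in cKO. Its difference of 46.0 points was 39.2 at matched covered length. Hnrnpr went from 4.41 to 44.1% with 6 named peaks in WT and 19 in cKO, but its difference was -2.10 points at matched covered length. Hnrnpul2 went from 34.2 to 70.1%. Hnrnpl (chromosome 7, 28808546 to 28822268), a regulator bound to CA-rich RNA, had the highest WT coverage of all 62 genes, 65.0%, and 72.9% in cKO. Its 7 WT peaks of 9422 bp in sum stood against 2 cKO peaks of 10901 bp. The longer of these was classed promoter-TSS, and without that class the difference was -15.3 points. Hnrnpf had little coverage in either, 0.676 and 2.40% of 25283 bp.

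Genes named in 1 list only were mostly marked in both by position. Hnrnpab had named peaks in WT alone, but 59.7% of its body was covered in WT and 79.9% in cKO, by 1 cKO peak of 14748 bp named Phykpl after the gene that overlaps it. Hnrnpc had named peaks in cKO alone (11 peaks, 4405 bp), yet its body was 9.04% covered in WT by 6 peaks named Gm22354, and 39.3% in cKO. Its difference was -4.87 points at matched covered length. Hnrnpa0 (14.9%) and Hnrnph2 (11.6%) had body coverage in cKO and none in WT. Over all 62 genes, 84 of 384 WT body peaks (21.9%) and 103 of 479 cKO body peaks (21.5%) carried the name of another gene. Conversely, 26 of 325 WT and 56 of 430 cKO peaks named after a splicing gene lay outside its body. For Hnrnph1, whose body was 21.1 and 47.4% covered, 6 of 15 named cKO peaks lay inside. Another protein-coding gene overlapped 14 of the 62 bodies, and reads there cannot be given to either gene. Without these 14 genes, 44 of 45 genes of at least 5 kb were higher, Hnrnpl being the exception. Among all marked genes of that length, overlapped or not, 75.3% were higher. The share was not taken over all genes without an overlap.

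**Figure D5:**
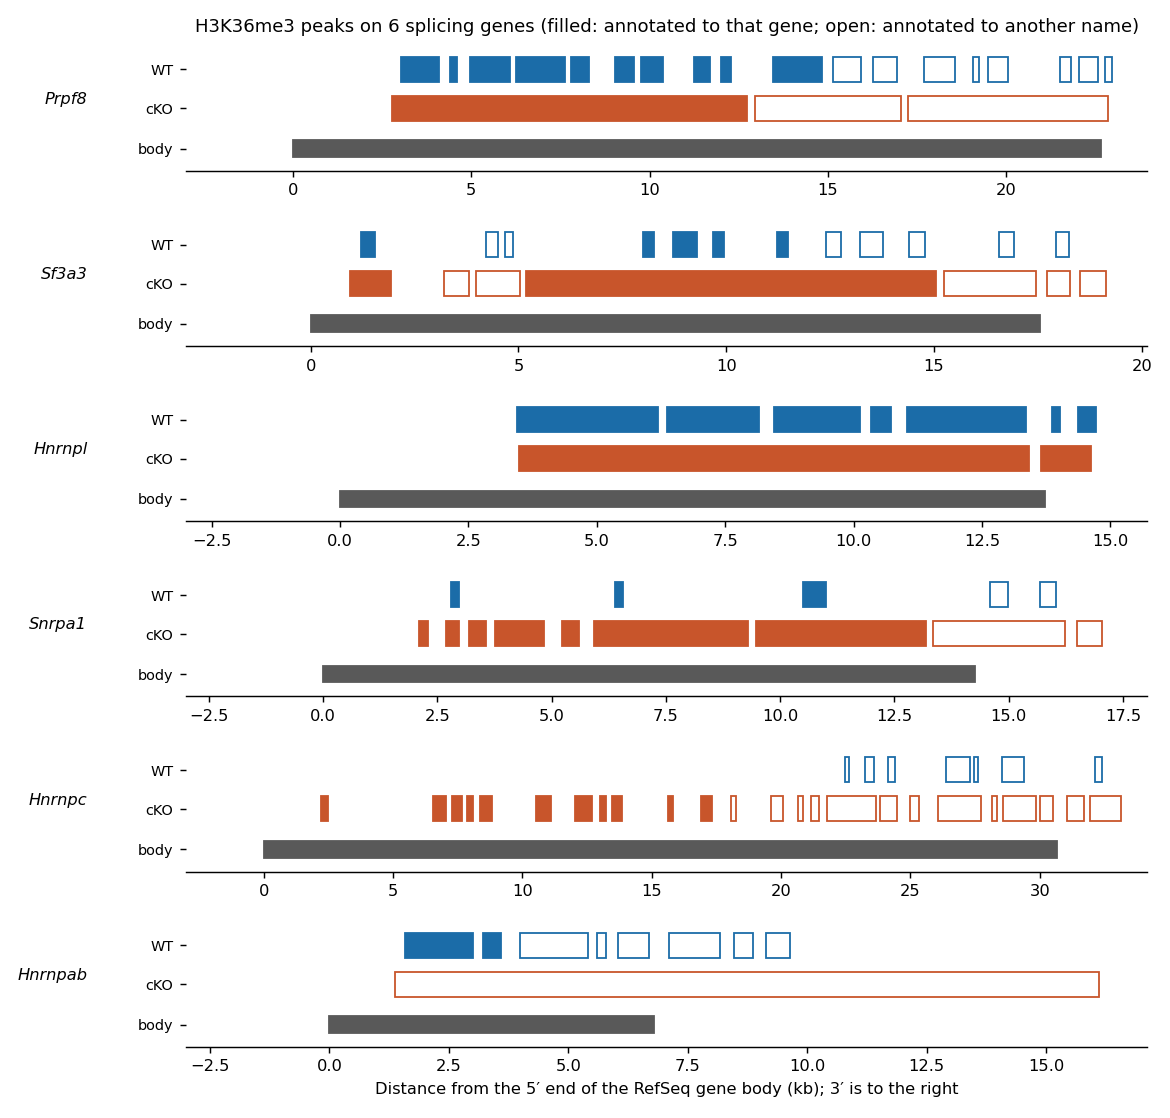
H3K36me3 peaks on 6 splicing genes by distance from the 5′ end of the gene body (x axis, kb), in WT (blue) and cKO (orange) above the body (grey); filled boxes are peaks annotated to the gene and open boxes peaks annotated to another name. On Prpf8 and Sf3a3 single cKO peaks of 9958 and 9861 bp span 9 and 7 WT peaks, Hnrnpl is covered over most of its length in both, Hnrnpc has WT peaks in its 3′ part only, and the 14748 bp cKO peak on Hnrnpab runs past the gene.

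Other splicing genes, listed by function and outside the name rule, also had higher coverage in cKO with the full lists, as did 75.3% of all marked genes. Shortened to the WT covered length, the cKO list gave median differences of 5.63 points for the snRNP proteins, 1.51 for the complex around Prpf19, 3.03 for early recognition and 0 for the LSm list. Of 20 proteins of the snRNPs, 19 had a WT body peak and 20 a cKO body peak, and 19 of 19 of at least 5 kb were higher, with Rbm42 (13.8 and 77.5%) and Snrnp27 (4.03 and 66.2%) foremost. Among 23 genes of the complex around Prpf19 and the catalytic steps, 21 were higher, with a median difference of 44.2 points. Dhx16 (11.5 and 72.2%) and Syf2 (10.2 and 67.7%) led them, and Cwc27 was at 0 and 1.01%. Dhx16 turned to -11.5 points at matched covered length and Snrnp27 to -4.03, while Rbm42 stayed at 58.4 and Syf2 at 57.5. All 15 factors of early splice site recognition were higher (median 26.8 points), among them Rbm17 (17.5 and 71.2%) and Luc7l (17.9 and 70.1%), which were at -0.203 and 13.5 points at matched covered length. Of 8 LSm and related genes of at least 5 kb, 8 were higher (median 27.5 points over all 11), with Lsm3 (14.1 and 66.7%) and Sart3 (32.2 and 73.9%) first and Lsm5 without peaks.

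The kinases and assembly factors that serve the spliceosome were also mostly higher, in shares beside the same 75.3% of marked genes. Of 7 kinases of SR proteins, 5 were higher, with Clk1 (20.8 and 65.6%) and Clk2 (29.2 and 73.2%) first, and Srpk2, a gene of 181287 bp, at 0.0943 and 2.96%. In the SMN complex, which loads Sm rings onto RNA, 11 of 13 were higher, with Gemin5 (5.70 and 57.5%) and Strap (8.80 and 56.7%) first and Gemin6 without peaks. In the exon junction complex, which marks spliced joints, 6 of 7 genes of at least 5 kb were higher, with Magoh (4.94 and 55.0%) and Rnps1 (25.4 and 73.0%) first and Magohb at 0 and 9.87%. With the full lists none of the genes in these 7 lists was lower by 10 points. Shortened to the WT covered length, the medians were 2.49 points for the kinases, -2.42 for the SMN complex and 8.81 for the exon junction complex. Gemin5 (-2.98), Strap (-8.80) and Magoh (-4.94) then turned, while Clk1 (27.2), Clk2 (25.1) and Rnps1 (42.9) stayed higher.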

How the data were processed

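H3K36me3 was measured by ChIP-seq in 1 WT and 1 cKO library, each with 1 input. The submitters' processing notes name Bowtie2 2.2.9 and the build mm10. MACS called narrow peaks against input; the file headers give its version as 2.1.1.20160309, the notes as 2.1.0. No source used here says whether inputs were pooled. Each deposited list gives peak positions, the pileup signal at the summit, the fold enrichment over input and the -log10 of the q-value, as written by MACS in the authors' hands. These values served only to rank or filter peaks within 1 list. A deposited table names each peak after a transcript and gives it a class, by a tool that no source used here names.

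Named peaks were counted and their lengths summed per gene. Coverage used merged peaks over the RefSeq spans of 21779 protein-coding genes on GRCm38.p6, to which all 62 members matched. Another 108 genes were left out because their listed start, at or before 3 Mb, may not be an mm10 position. Strand came from the RefSeq promoter table, which holds 53 of the 62 members. When a broad mark is called as narrow peaks, neighbouring pieces fuse as signal rises, so peak number and length depend on signal strength. Groups came from the sample labels, and with 1 ChIP library per genotype no test was made. The members and gene lists were chosen with earlier results of these data known, so they are no independent support for a pattern. Of 8 entries in the list of kinases of SR proteins, 1 is the member Prpf4b under another name and was not counted there.

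Within each role group the text names the 3 largest differences in coverage, the smallest, and the highest WT coverage. It also names genes with peaks in 1 list, with less summed length in cKO, with most WT peaks, or whose named peaks lie mostly outside the body. The values of 1 gene that the rule would name are not reported here. Alternatives were minimum values of 5 for -log10 q and of 4 for the fold, a cKO list shortened to match WT in peak number or in covered length, peaks within 3 kb joined, promoter-TSS peaks left out, other call limits and a reciprocal overlap of 50%. The overlap and coverage code was tested on simulated peaks. Python 3.11.15, pandas 2.3.3, numpy 2.4.6 and scipy 1.17.1 were used.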

Additional observations from a re-analysis of the deposited data

Results flagged for a closer look

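Some peaks on or near splicing genes stood outside the counts of named peaks above. Peaks classed intergenic carried the name of a splicing gene 10 times in WT and 16 times in cKO, several of them just outside the bodies of Srsf3, Snrpb and Hnrnpf. Of these, 1 in WT and 2 in cKO touched the body of their gene, on Hnrnpd and Srsf5, and entered its coverage. Sf3b3, the gene of another SF3B subunit, is named in neither annotation. Its body nevertheless held 32 WT and 10 cKO peaks under other names, and its coverage was 33.5% in WT and 87.7% in cKO. Snrpf, which encodes a protein of the Sm ring, held 5 cKO peaks and none in WT, with 25.5% coverage in cKO. Sf3b6, which encodes the SF3B subunit at the branch point adenosine, held 6 cKO peaks under another name, with 2.07% coverage in WT and 48.7% in cKO.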

How the results depend on the processing

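No paired analysis was possible because each genotype had 1 ChIP library. Across 90 recomputed summary values, 68 stayed within 1.5 times (counts) or the stated spread and 22 moved. With the cKO list at the WT number of peaks, 4 genes were lower by summed length (11.4% of all names) and 92.6% of WT peaks were shared. At the WT covered length, 14 genes were higher and 18 lower by summed length (11.9% and 65.9% of all names), so the balance turned from 50 higher and 2 lower. The median ratio was 1.57 over genes still named in both lists and 1.16 with 0 for genes left without a cKO peak. There, 21 were higher and 6 lower by coverage, the median difference was 3.97 points, the cKO median 19.5%, and 52% of WT peaks were shared. With peaks within 3 kb joined, 27 genes were higher by summed length with a median ratio of 1.74, and 14 had fewer peaks and more length. Neither count was taken over all genes. By coverage 36 were then higher (35.9% of all genes and 77% of those with a WT peak). The WT median was 41.6% and the median difference 17.8 points. Assigning peaks by body left 0 genes lower by summed length, a count not taken over all genes. A ratio of 4 left 28 higher (74.7% of all names). With 50% reciprocal overlap required, 16.6% of WT peaks were shared. The shared percentages in this paragraph are for splicing genes and were not taken over all genes. Leaving out the genes overlapped by another, an alternative chosen after seeing the data, left 1 lower by summed length. That count was not taken over all genes either.

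Leaving out promoter-TSS peaks made 4 genes lower by summed length and 2 by coverage, counts that were not taken over all genes. The 2 by coverage were Sf3a2 (-16.2 points) and Hnrnpl (-15.3), which lost their long cKO peaks by that class. Hnrnph3 (-5.33) and Srsf3 (-0.149) also turned. Of 438 values for named genes, 20 changed direction from a value past the call limit. At the WT covered length the coverage difference was -4.87 points in Hnrnpc, -2.10 in Hnrnpr, -0.0148 in Prpf39, -7.25 in Prpf40b, -25.5 in Sf3b4, -4.06 in Snrpb2, -10.4 in Snrpg, -1.23 in Srsf7 and -9.35 in U2af2. The ratio of summed length there was 0.523 in Hnrnpr, 0.423 in Prpf40b and 0 in Hnrnpf, Prpf39, Snrpb2 and Snrpg, and for Hnrnpf it was also 0 at the WT number of peaks. Assigned by body, the ratio was 3.64 in Hnrnpab and 2.82 in Sf3b4. With peaks joined, Srsf2 differed by -0.370 points. Where no construction of the alternative shows it, the cause was not tested.

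With 1 library per genotype the spread between embryos is unknown. Peak lists give no counts per gene, so absence of a peak sets no upper limit on the mark.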
